A study of Homo sapiens with 12 samples.

Results

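Ferroptosis is a form of cell death in which iron drives the peroxidation of polyunsaturated lipids in membranes, and 10 genes that defend cells against it or supply its substrates were followed in HepG2, an established cell line from a human liver tumour. The genes were taken by symbol, SLC7A11, SLC3A2, GPX4, AIFM2, GCH1, DHODH, ACSL4, ACSL3, LPCAT3 and ALOX5, and all 10 were found among the 20030 genes of the deposited table. RNA was sequenced in 12 libraries, 3 from each of 4 groups given DMSO (the vehicle), 8HQ, FAC, or 8HQ and FAC together (8HQ/FAC). The labels give 6 h of treatment for all groups and 10 µM, a dose that they set before DMSO as well, so that the agent it belongs to is not clear. The labels spell out neither abbreviation; in this field FAC commonly denotes the iron salt ferric ammonium citrate and 8HQ the metal-binding ionophore 8-hydroxyquinoline. Whether the 3 libraries of each group stem from separate cultures is not stated, and p-values therefore measure the spread between libraries only, which may be technical. No genetic change is named for any group, and HepG2, as a tumour line, stands in for liver cells only in part.

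Cells meet lipid peroxides along several parallel routes. The cystine importer feeds the making of glutathione, which GPX4 uses to reduce lipid hydroperoxides, while the protein encoded by AIFM2, known as FSP1, regenerates coenzyme Q and vitamin K as lipid antioxidants at membranes. GCH1 starts the synthesis of tetrahydrobiopterin, another lipid antioxidant, and DHODH, an enzyme of pyrimidine synthesis, reduces coenzyme Q inside mitochondria. On the other side, ACSL4 and LPCAT3 place polyunsaturated fatty acids in phospholipids, where labile iron or lipoxygenases such as ALOX5 can oxidise them, whereas ACSL3 activates monounsaturated fatty acids that resist oxidation.

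Before the values, 4 promoters are shown because GPX4, SLC3A2 and ACSL4 had the largest changes under 8HQ/FAC against DMSO and AIFM2 changed under each agent. Each is a RefSeq window on GRCh38.p14 from 250 bases before to 50 bases after the transcript start, read 5′ to 3′ on the strand of the gene. Symbols of 7 members matched this source, with 11 windows in all. SLC7A11, GCH1 and ALOX5 were not matched. Of the start sites given for SLC3A2 and GPX4, 1 is printed for each.
AIFM2, minus strand, chr10:70132776-70133075: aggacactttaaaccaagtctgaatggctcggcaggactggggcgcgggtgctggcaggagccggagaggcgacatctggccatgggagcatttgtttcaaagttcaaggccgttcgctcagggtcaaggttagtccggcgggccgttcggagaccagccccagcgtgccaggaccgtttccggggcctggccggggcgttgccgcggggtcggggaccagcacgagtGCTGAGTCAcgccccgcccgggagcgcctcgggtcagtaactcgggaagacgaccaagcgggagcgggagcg
SLC3A2, plus strand, chr11:62881449-62881748: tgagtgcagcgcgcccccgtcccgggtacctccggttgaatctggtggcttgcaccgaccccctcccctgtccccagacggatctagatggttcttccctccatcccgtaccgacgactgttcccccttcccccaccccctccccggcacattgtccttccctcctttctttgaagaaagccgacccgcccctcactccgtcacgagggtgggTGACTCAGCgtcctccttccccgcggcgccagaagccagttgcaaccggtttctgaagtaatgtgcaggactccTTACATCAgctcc
GPX4, plus strand, chr19:1103744-1104043: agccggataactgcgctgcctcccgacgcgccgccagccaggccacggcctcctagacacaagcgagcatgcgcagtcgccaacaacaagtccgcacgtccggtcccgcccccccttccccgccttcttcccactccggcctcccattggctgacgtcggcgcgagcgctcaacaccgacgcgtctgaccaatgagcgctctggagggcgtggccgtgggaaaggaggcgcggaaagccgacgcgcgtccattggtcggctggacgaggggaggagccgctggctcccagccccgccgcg
ACSL4, minus strand, chrX:109733208-109733507: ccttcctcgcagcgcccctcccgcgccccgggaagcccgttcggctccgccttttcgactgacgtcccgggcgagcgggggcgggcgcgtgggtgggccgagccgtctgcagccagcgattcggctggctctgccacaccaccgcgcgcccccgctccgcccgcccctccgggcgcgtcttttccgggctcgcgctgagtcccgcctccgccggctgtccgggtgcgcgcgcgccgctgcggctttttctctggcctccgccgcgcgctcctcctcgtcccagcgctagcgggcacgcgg
Capitals mark matches to 3 motifs searched on both strands. The antioxidant response element core, TGACNNNGC, which binds NRF2 with small MAF proteins, was found in 13.3% of all 35116 promoter windows of this length. The C/EBP-ATF response element, TGATGNAA, was found in 3.62%, and the AP-1 site, TGACTCA, in 4.95%. In the AIFM2 window the antioxidant response element core was present on the opposite strand as GCTGAGTCA, beginning 22 bases before the start. It overlapped an AP-1 site by all 7 letters of that site. The SLC3A2 window held the core as TGACTCAGC, beginning 37 bases before the start and likewise overlapping an AP-1 site, and the C/EBP-ATF element on the opposite strand as TTACATCA, which began 38 bases into the transcript. The other 9 windows of members held no match to these letters. A match describes the sequence only; binding was not measured.

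The libraries differed in ways that bear on every comparison. Values are FPKM, which divides the reads or fragments of a gene by the length of its model and by the mapped total, and summed to between 335508 and 346915 in the libraries of DMSO, 8HQ and FAC but to between 419275 and 427192 in those of 8HQ/FAC. Depth estimated from the steps between low values was 0.773 to 0.842 of that of DMSO replicate 1 in the 8HQ/FAC libraries and 0.918 to 1 in the others. The 7 hepatocyte and hepatoma markers were above 0 in all 12 libraries, but their levels moved apart with 8HQ/FAC. HNF4A was at 28.8 to 30.1 FPKM there against 78.5 to 81.3 with DMSO, and APOB at 726 to 775 against 1578 to 1719. ALB, APOA1, SERPINA1, TF and AFP were higher in each 8HQ/FAC library than in any DMSO library. Of 18 blood cell and Kupffer cell markers, 5 split the libraries by FAC, and 6 were above 0 in all 12 libraries. CD3E, TYROBP, HLA-DRA, S100A8 and HBB stood at 0 in each of the 6 libraries given FAC and were detected in each of the 6 others, so FAC cannot be told apart from a difference in how those libraries were handled. HepG2 is a single cell line, and the source of these blood cell transcripts was not tested. In bulk RNA, fewer cells of a type and less RNA per cell cannot be told apart either. The split was not limited to blood markers. COL1A2, a fibroblast marker, was also at 0 in each library given FAC and above 0 in each of the others. COL1A1, PDGFRB and ACTA2 of the same list were above 0 in all 12, and DCN was above 0 in FAC replicate 1. No endothelial or cholangiocyte marker split the libraries in this way.

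The tests used log2 of FPKM plus 1 and covered the 10823 genes that reached 1 FPKM in 3 or more libraries. Of the 10 genes, 9 were tested and ALOX5 was too low. A gene was called where its adjusted p was under 0.05. The median log2 change of all tested genes was 0.01 for 8HQ and -0.01 for FAC against DMSO. It was -0.23 for 8HQ/FAC against DMSO, -0.22 against FAC and -0.25 against 8HQ. Fold changes of the 8HQ/FAC libraries therefore depend on the scaling, and each was also computed with medians centred, with quantile normalization, with library sums made equal and with the trend along transcript length removed, named below as the 4 other scalings (median centring, quantile normalization, equal sums and length correction).

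**Figure D1:**
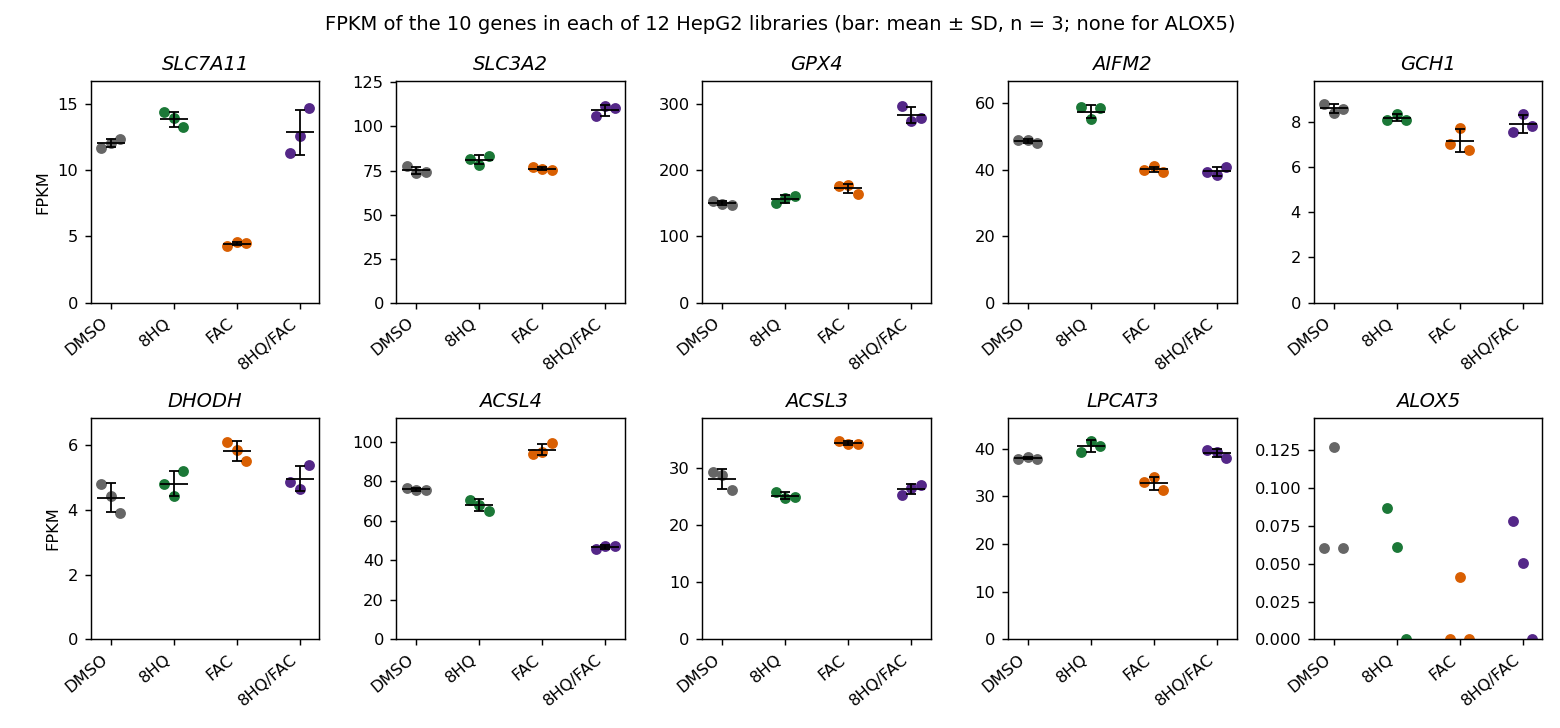
FPKM of each of the 10 genes in the 12 libraries, with points for libraries and a bar for the mean ± SD of each group of 3 except for ALOX5. SLC7A11 stood lowest in the 3 FAC libraries, GPX4 and SLC3A2 stood highest in the 3 8HQ/FAC libraries, and the 4 groups of ACSL4 did not overlap.

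The cystine importer is a pair of proteins, the transporter xCT encoded by SLC7A11 and its heavy chain, CD98hc, encoded by SLC3A2, which also escorts other amino acid transporters to the cell surface. SLC7A11 was at 11.7, 12.1 and 12.3 FPKM in the DMSO libraries, at 14.3, 13.9 and 13.2 with 8HQ, at 4.29, 4.53 and 4.48 with FAC and at 11.3, 12.6 and 14.7 with 8HQ/FAC. The 3 FAC libraries lay far below all 9 others, the 8HQ libraries lay above the DMSO libraries, and the 8HQ/FAC libraries spread across the ranges of both. With FAC alone the mean fell from 12.02 ± 0.32 to 4.44 ± 0.128 FPKM (SD, n = 3 and 3), a level 2.71-fold lower (log2 change -1.26, SE 0.07, adjusted p = 1.19e-09). Under the 4 other scalings this change lay between -1.30 and -1.21. With both agents the mean was 12.9 ± 1.69 FPKM, 2.90-fold higher than with FAC alone (log2 change 1.34, adjusted p = 5.13e-11), and this stayed between 1.08 and 1.99 under the 4 other scalings. Against DMSO the difference with both agents was 0.08 (adjusted p = 0.261). It ran from -0.22 to 0.77 over the 4 other scalings, called in each, and was called at 0.16 without 8HQ/FAC replicate 1 (adjusted p = 0.0197). Against 8HQ alone it was -0.10 (adjusted p = 0.163), and -0.20 and called without 8HQ/FAC replicate 3 (adjusted p = 0.00378). All 4 other scalings called it, at -0.40 with equal sums, 0.19 under quantile normalization, 0.32 under median centring and 0.60 after length correction. The difference of 0.19 with 8HQ alone missed the threshold (adjusted p = 0.135) and passed it with only the groups compared in the fit (adjusted p = 0.0461) and without 8HQ/FAC replicate 3 (adjusted p = 0.0403), which shares only the estimate of the spread. The annotation places the antisense gene SLC7A11-AS1 on the other strand of SLC7A11, and whether counting used the strand is not given in the sources used here.

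SLC3A2 followed another course. It was at 77.3, 73.7 and 74.1 FPKM with DMSO, at 81.4, 78.4 and 83.5 with 8HQ, at 76.7, 76.1 and 75.5 with FAC and at 106, 112 and 111 with 8HQ/FAC. The 8HQ/FAC libraries lay above all others, the 8HQ libraries just above those of DMSO, and the FAC libraries within the DMSO range. With both agents the mean rose from 75.1 ± 1.97 to 109 ± 3.12 FPKM, or 1.46-fold (log2 change 0.54, SE 0.03, adjusted p = 2.38e-10), and the rise stayed between 0.21 and 0.95 under the 4 other scalings. It was also 1.44-fold higher than with FAC alone and 1.35-fold higher than with 8HQ alone, both called. With FAC alone the log2 change was 0.02 (adjusted p = 0.617). With 8HQ alone it was 0.11 (adjusted p = 0.0581). That difference passed the threshold under quantile normalization (0.13, adjusted p = 0.023), with a filter at 5 FPKM (0.11, adjusted p = 0.0464), without 8HQ replicate 2 (0.13, adjusted p = 0.0462) and without 8HQ/FAC replicate 1 (0.11, adjusted p = 0.0488). The level of SLC7A11 relative to SLC3A2, both per length, was 0.160 ± 0.00806 in DMSO, 0.171 ± 0.0108 with 8HQ, 0.0583 ± 0.00206 with FAC and 0.117 ± 0.0134 with 8HQ/FAC. This ratio within a library does not change when all its values are rescaled together, and the FAC libraries stood lowest in it. The ratio does respond to a trend along transcript length, as SLC7A11 (9645 bases) is longer than SLC3A2 (2222 bases).

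GPX4, the selenium-containing peroxidase that reduces lipid hydroperoxides in membranes, was the most abundant of the 10 genes in every group. Its values were 153, 149 and 147 FPKM with DMSO, 150.2, 158 and 161 with 8HQ, 176, 177 and 164 with FAC and 296, 274 and 278 with 8HQ/FAC. The 8HQ/FAC libraries lay far above all others, the FAC libraries lay above the 2 remaining groups, and 8HQ and DMSO overlapped. With both agents the mean rose from 149.6 ± 2.87 to 283 ± 11.8 FPKM, or 1.89-fold (log2 change 0.91, SE 0.04, adjusted p = 3.49e-12). The rise stayed called and between 0.45 and 1.33 under the 4 other scalings. It was 1.64-fold over FAC alone and 1.81-fold over 8HQ alone. FAC alone gave 172 ± 7.16 FPKM, a rise of 0.20 (SE 0.04, adjusted p = 0.000319), and 8HQ alone a difference of 0.06 (adjusted p = 0.376).

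AIFM2 was higher with 8HQ and lower wherever FAC was present. It was at 49.0, 48.9 and 48.0 FPKM with DMSO, at 58.9, 55.2 and 58.6 with 8HQ, at 39.98, 41.0 and 39.4 with FAC and at 39.3, 38.3 and 40.9 with 8HQ/FAC. The 8HQ libraries were highest, the DMSO libraries next, and the FAC and 8HQ/FAC libraries shared the lowest range. With 8HQ alone the mean rose from 48.6 ± 0.551 to 57.5 ± 2.06 FPKM (log2 change 0.24, SE 0.03, adjusted p = 0.000744), and with FAC alone it fell to 40.1 ± 0.853 FPKM (-0.27, adjusted p = 9.78e-06). Both calls stood under the 4 other scalings. With FAC added to 8HQ, AIFM2 was at 39.5 ± 1.31 FPKM, 1.46-fold below 8HQ alone (-0.53, adjusted p = 7e-10), with a range of -0.85 to -0.11 over the 4 other scalings. Against DMSO the fall with both agents was -0.29 (adjusted p = 8.56e-07), but it was 0.12 under median centring and -0.07 and not called after length correction. In GENCODE 29 the gene overlaps H2AFY2, a histone gene, on the other strand.

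GCH1, the first and rate-limiting enzyme of tetrahydrobiopterin synthesis, was at 8.81, 8.40 and 8.57 FPKM with DMSO, at 8.10, 8.35 and 8.07 with 8HQ, at 7.03, 7.73 and 6.76 with FAC and at 7.56, 8.35 and 7.83 with 8HQ/FAC. The DMSO libraries lay above all others, narrowly so for 8HQ and 8HQ/FAC, and the 8HQ/FAC libraries overlapped those of both single agents. The mean was 7.17 ± 0.50 FPKM with FAC alone against 8.60 ± 0.203 with DMSO (log2 change -0.23, SE 0.05, adjusted p = 0.00125). The other differences were small in the deposited scaling. Between 8HQ/FAC and FAC it was 0.13 (adjusted p = 0.0305), lost without FAC replicate 1 (adjusted p = 0.0822), FAC replicate 3 (0.139) or 8HQ/FAC replicate 2 (0.135), and -0.13 with equal sums. Between 8HQ/FAC and DMSO the difference was -0.11 (adjusted p = 0.061). It was called without FAC replicate 2 (adjusted p = 0.0427) or without 8HQ/FAC replicate 2 (-0.14, adjusted p = 0.0266) and reversed under quantile normalization and median centring. Between 8HQ/FAC and 8HQ the difference was -0.04 (adjusted p = 0.446). Over the 4 other scalings the difference from FAC ran from -0.13 to 0.49, called in all 4. That from DMSO ran from -0.40 to 0.31, called in 3, and that from 8HQ from -0.33 to 0.38, called in all 4.

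DHODH, the lowest of the 9 tested genes in the 3 groups other than FAC, was at 4.79, 4.44 and 3.92 FPKM with DMSO, at 4.81, 4.43 and 5.19 with 8HQ, at 6.10, 5.85 and 5.50 with FAC and at 4.86, 4.64 and 5.40 with 8HQ/FAC. The FAC libraries lay above all others, and the remaining 3 groups overlapped. With FAC alone the mean rose from 4.38 ± 0.438 to 5.82 ± 0.30 FPKM, 32.7% above DMSO (log2 change 0.34, adjusted p = 0.000798). With both agents it was 4.97 ± 0.391 FPKM. That was lower than with FAC alone by -0.19 on the log2 scale (adjusted p = 0.0191), a call lost without FAC replicate 1 (adjusted p = 0.0713), 8HQ/FAC replicate 1 (0.0516) or 8HQ/FAC replicate 2 (0.0823) and reversed under quantile normalization, median centring and length correction. Against DMSO the difference was 0.15 (adjusted p = 0.0583). It was called without DMSO replicate 1 (0.20, adjusted p = 0.0205) and without 8HQ/FAC replicate 2 (0.19, adjusted p = 0.0348). Over the 4 other scalings it ran from -0.12 with equal sums, not called, to 0.59, called in the other 3.

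ACSL4, which couples arachidonic and adrenic acid to coenzyme A and so makes cells more sensitive to ferroptosis, separated all 4 groups. It was at 76.6, 75.5 and 75.8 FPKM with DMSO, at 70.7, 68.3 and 64.9 with 8HQ, at 94.0, 94.9 and 99.4 with FAC and at 45.9, 47.2 and 47.5 with 8HQ/FAC. No groups overlapped, with FAC highest, then DMSO, 8HQ and 8HQ/FAC. The mean was 96.1 ± 2.91 FPKM with FAC alone against 76.0 ± 0.556 with DMSO (log2 change 0.33, SE 0.03, adjusted p = 1e-06). With both agents together it was 46.9 ± 0.849 FPKM, 1.62-fold below DMSO (-0.69, adjusted p = 2.83e-11) and 2.05-fold below FAC alone (-1.02, adjusted p = 5.77e-13). Over the 4 other scalings the fall against DMSO ran from -1.01 to -0.23 and the fall against FAC from -1.31 to -0.60, all called. Against 8HQ alone the fall was 1.45-fold (-0.53, adjusted p = 6.1e-10), and -0.06 and not called after length correction (adjusted p = 0.107). 8HQ alone lowered ACSL4 to 68.0 ± 2.92 FPKM (-0.16, adjusted p = 0.0125), which missed the threshold without DMSO replicate 1 (-0.15, adjusted p = 0.051) and without 8HQ replicate 3 (-0.13, adjusted p = 0.0603).

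ACSL3 and LPCAT3 moved less in the deposited scaling. ACSL3 was at 29.4, 28.9 and 26.1 FPKM with DMSO, at 25.9, 24.7 and 25.1 with 8HQ, at 34.9, 34.3 and 34.2 with FAC and at 25.4, 26.6 and 27.1 with 8HQ/FAC. The FAC libraries lay above all others, and the 8HQ/FAC libraries overlapped both DMSO and 8HQ. ACSL3 was at 34.5 ± 0.345 FPKM with FAC alone against 28.1 ± 1.73 with DMSO (log2 change 0.29, SE 0.04, adjusted p = 4.7e-05). With both agents it was at 26.4 ± 0.914 FPKM, below FAC alone by -0.37 (adjusted p = 6.66e-07), but at -0.01 under median centring and 0.07 after length correction. DMSO replicate 3 stood below its 2 companions. Without it the differences of -0.15 with 8HQ (adjusted p = 0.056) and -0.09 with 8HQ/FAC (adjusted p = 0.0628) from DMSO became -0.20 (adjusted p = 0.0113) and -0.14 (adjusted p = 0.00387). The former was also called in 3 of the 4 other scalings, over which it ran from -0.16 to -0.15, and with a filter at 5 FPKM. The difference with 8HQ/FAC was also called without 8HQ/FAC replicate 3 (-0.11, adjusted p = 0.0453) and was reversed under median centring and length correction. LPCAT3, which adds the activated polyunsaturated fatty acids to lysophospholipids, was at 37.9, 38.3 and 37.9 FPKM with DMSO, at 39.3, 41.7 and 40.6 with 8HQ, at 33.1, 34.0 and 31.3 with FAC and at 39.8, 39.3 and 38.2 with 8HQ/FAC. Its FAC libraries lay below all others, the 8HQ libraries lay above those of DMSO, and the 8HQ/FAC libraries overlapped both. LPCAT3 had a mean of 32.8 ± 1.36 FPKM with FAC alone against 38.0 ± 0.23 with DMSO (-0.21, adjusted p = 0.00016). With both agents it was higher than with FAC alone by 0.25 (adjusted p = 8.44e-06), but at -0.04 with equal sums. Against DMSO the difference of LPCAT3 with both agents was 0.04 (adjusted p = 0.294). It ran from -0.28 to 0.46 over the 4 other scalings, called in 3 of them. In GENCODE 29 LPCAT3 overlaps EMG1 and C1S on the other strand and ACSL4 overlaps KCNE5 on its own, and how reads were divided there is not given in the sources used here.

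ALOX5, the lipoxygenase that starts leukotriene synthesis in myeloid cells, was near the limit of detection. It was listed at 0.0607, 0.127 and 0.0607 FPKM with DMSO, at 0.0869, 0.0612 and 0 with 8HQ, at 0, 0.0411 and 0 with FAC and at 0.0785, 0.0504 and 0 with 8HQ/FAC. At most 6.01 reads, estimated from the steps between low values, lay behind any of these. Each group overlapped the next in the order of levels, the FAC libraries lay below all 3 DMSO libraries, and ALOX5 was above 0 in 5 of 6 libraries without FAC and in 3 of 6 with it. Markers of leukocytes and Kupffer cells numbered fewer above 0 in each library with FAC, while their summed level was not lower there. All 13 were above 0 in each library without FAC, 5 to 9 in the FAC libraries and 5 to 6 in the 8HQ/FAC libraries, and FCER1G, CD14, CD68, LYZ and CD74 were above 0 in all 12. The summed level was 1267 to 1308 FPKM in DMSO, 1146 to 1174 with 8HQ, 1274 to 1352 with FAC and 2104 to 2129 with 8HQ/FAC. Most of that sum was LYZ, at 1014 to 1185 FPKM without FAC and 1145 to 1947 with it, whereas the leukocyte antigen PTPRC was at 0.0881 to 0.233 FPKM without FAC and 0 to 0.0165 with it. Their part in the ALOX5 values was not tested.

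Counted together, calls against DMSO among the 9 tested genes were more frequent where FAC was present, as were calls among all tested genes. With 8HQ alone, AIFM2 was called higher and ACSL4 lower, 1 gene in each direction, where 2.49% of all tested genes were called higher and 2.41% lower. With FAC alone 4 were called higher, GPX4, DHODH, ACSL4 and ACSL3, and 4 lower, SLC7A11, AIFM2, GCH1 and LPCAT3, beside 24.8% and 29.2% of all tested genes. The median log2 change of the 9 genes was 0.02 there. All 8 of these calls held in each of the alternatives run, the 4 other scalings and each left-out library included. With both agents against DMSO, 2 were called higher, SLC3A2 and GPX4, and 2 lower, AIFM2 and ACSL4, where 27.5% and 56.7% of all tested genes were called. The 9 genes had a median of 0.04 against -0.23 for all tested genes. Their calls numbered 7 to 9 under the 4 other scalings, where 8643 to 9449 of all tested genes were called.

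Against the single agents the picture was uneven. Relative to FAC alone, 8HQ/FAC raised SLC7A11, SLC3A2, GPX4, GCH1 and LPCAT3 and lowered DHODH, ACSL4 and ACSL3, 5 and 3 genes, with 26.8% and 56% of all tested genes called higher and lower. The scalings and libraries on which GCH1, DHODH, ACSL3 and LPCAT3 depend stand with each gene above. Relative to 8HQ alone, 2 rose, SLC3A2 and GPX4, and 2 fell, AIFM2 and ACSL4, beside 26.8% and 57.6% of all tested genes. These shares are high in every comparison with 8HQ/FAC, and the members' counts were read against them. In the deposited scaling, against DMSO, 2 of 9 genes higher lies near the share of 27.5% and 2 of 9 lower lies below that of 56.7%. The same holds against 8HQ alone, at 26.8% and 57.6%. Against DMSO the calls were 5 higher and 2 lower under quantile normalization and 8 and 1 under median centring. They were 2 and 6 with equal sums and 6 and 1 after length correction. Among all tested genes these calls numbered 4405 higher and 4448 lower, 5780 and 3354, 1479 and 7970, and 4388 and 4255 in that order. The fits held 10823 genes, or 10777 after length correction. Against 8HQ alone the members' calls were 6 and 2, 7 and 2, 2 and 7, and 7 and 1 in the same order. All tested genes gave 4405 and 4477, 5700 and 3445, 1462 and 8021, and 4384 and 4271 there. Against FAC alone the members' calls were 6 and 2, 7 and 1, 3 and 5, and 7 and 1. Beside them stood 4282 and 4328, 5537 and 3314, 1454 and 7844, and 4278 and 4001 of all tested genes. The comparisons share libraries and are not independent of each other.

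**Figure D2:**
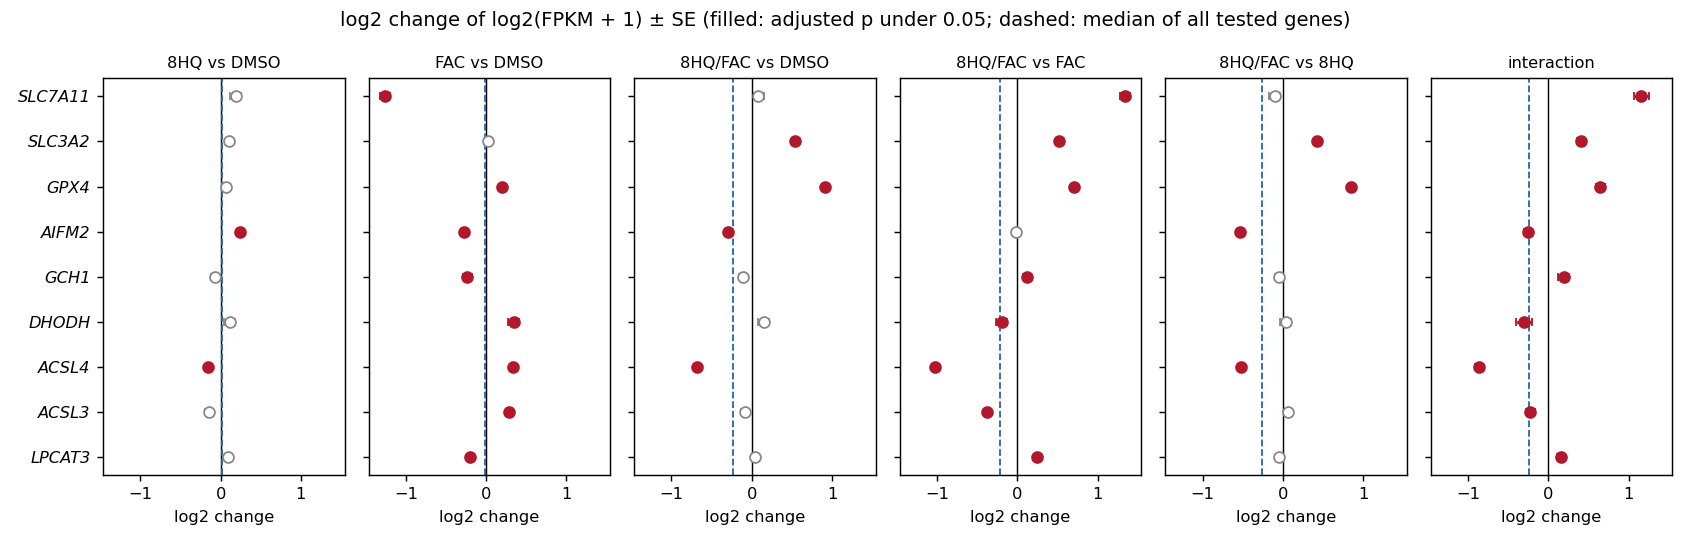
Log2 change of the 9 tested genes in the 6 comparisons, with points for the estimate, filled where called, bars for ±1 SE and a dashed line at the median of all tested genes. SLC7A11 lay at -1.26 for FAC against DMSO and at 1.34 for 8HQ/FAC against FAC, and ACSL4 at 0.33 and -1.02 in the same comparisons.

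The layout of the groups also allows the effect of FAC in the presence of 8HQ to be set against its effect without it. All 9 genes were called for this difference, 5 higher and 4 lower, where 23.4% of all tested genes were called higher and 53.3% lower. The difference was 1.16 for SLC7A11 (SE 0.09, adjusted p = 3.15e-08), 0.65 for GPX4 (adjusted p = 2.45e-08) and 0.41 for SLC3A2 (adjusted p = 7.17e-07). It was -0.86 for ACSL4 (adjusted p = 4.58e-10). For these 4 genes the sign and the call held under the 4 other scalings, with ranges of 0.90 to 1.81 for SLC7A11, 0.23 to 1.02 for GPX4, 0.12 to 0.78 for SLC3A2 and -1.14 to -0.43 for ACSL4. SLC7A11 was thus lower and ACSL4 higher with FAC alone than with DMSO, where FAC cannot be told apart from library handling. On top of 8HQ the log2 changes with FAC were -0.10 for SLC7A11, not called, and -0.53 for ACSL4. Over the 4 other scalings the first of these ran from -0.40 to 0.60, called each time, and the second from -0.84 to -0.06, not called after length correction. The differences for AIFM2, GCH1, DHODH, ACSL3 and LPCAT3 lay between -0.30 and 0.19, and each changed sign under at least 1 of the 4 other scalings.

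**Figure D3:**
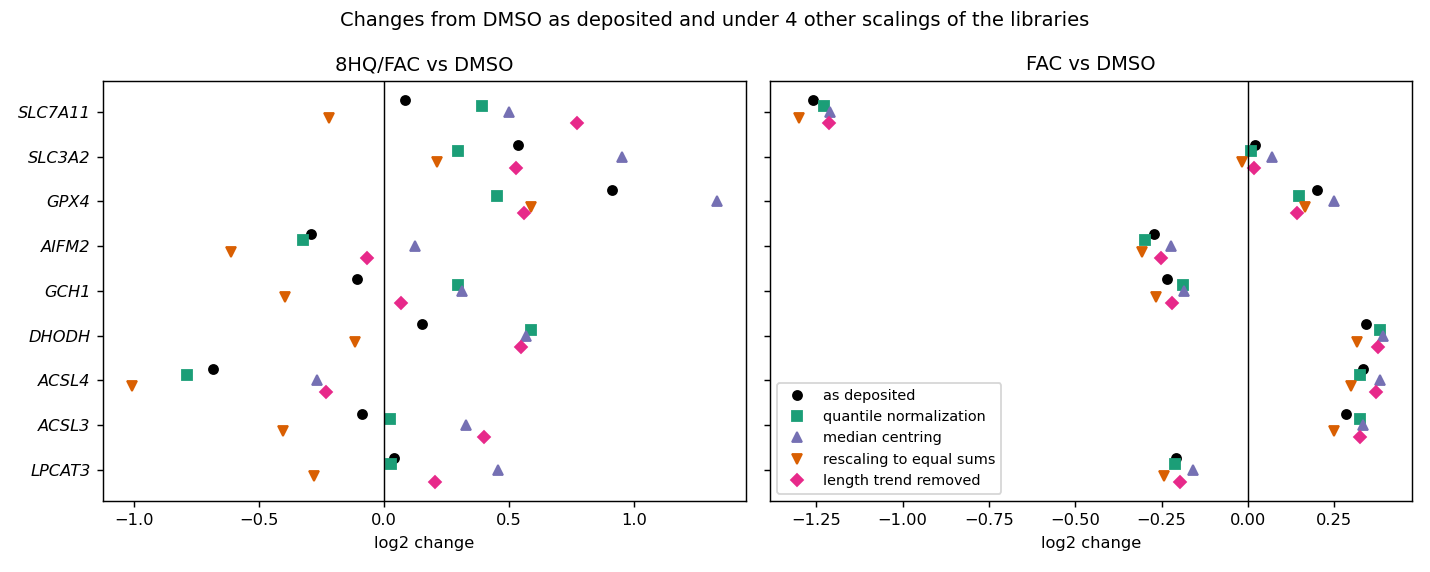
Log2 change of the 9 tested genes under the deposited scaling and the 4 other scalings, for 8HQ/FAC and for FAC against DMSO. With 8HQ/FAC, GPX4 and SLC3A2 stayed above 0 and ACSL4 below 0 under each scaling while the other 6 genes lay on both sides of it, and with FAC only SLC3A2 did.

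Transcript length moved with the change in 8HQ/FAC libraries. Against DMSO the median log2 change was 0.22 in the 2695 tested genes with the shortest transcripts, among them GPX4 (1184 bases) and SLC3A2 (2222 bases). It was -0.61 in the 2694 with the longest, among them ACSL4 (5333 bases), ACSL3 (5679 bases) and SLC7A11 (9645 bases). The members with the clearest rises and the clearest fall thus stood in the length classes that moved the same way, and SLC7A11, at 0.08, stood above the median of its class. The part of length in these changes was not tested beyond the scaling that removes its trend, under which GPX4 went from 0.91 to 0.56, SLC3A2 from 0.54 to 0.53 and ACSL4 from -0.69 to -0.23 against DMSO, all still called.

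Ratios between members of a library show the balance without any scaling of the library as a whole. GPX4 stood to ACSL4 as 1.99, 1.98 and 1.94 in the DMSO libraries, 2.12, 2.31 and 2.48 with 8HQ, and 6.45, 5.79 and 5.86 with 8HQ/FAC, with means of 1.97 ± 0.0277, 2.30 ± 0.176 and 6.04 ± 0.362. With FAC the mean was 1.80 ± 0.126. The 8HQ/FAC libraries lay far above all others in this ratio, and the FAC group had the lowest mean. ACSL4 relative to LPCAT3, the acyltransferase that follows it, was 2.94 ± 0.207 with FAC against 1.999 ± 0.0249 in DMSO, 1.68 ± 0.106 with 8HQ and 1.20 ± 0.0454 with 8HQ/FAC. ACSL4 relative to ACSL3 was 2.71 in DMSO, 2.69 with 8HQ, 2.79 with FAC and 1.78 with 8HQ/FAC, and AIFM2 relative to GPX4 was 0.325, 0.369, 0.233 and 0.140 in the same order. A changed ratio shows that its genes did not change in proportion, not which of them changed, and these ratios respond to a trend with length.

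**Figure D4:**
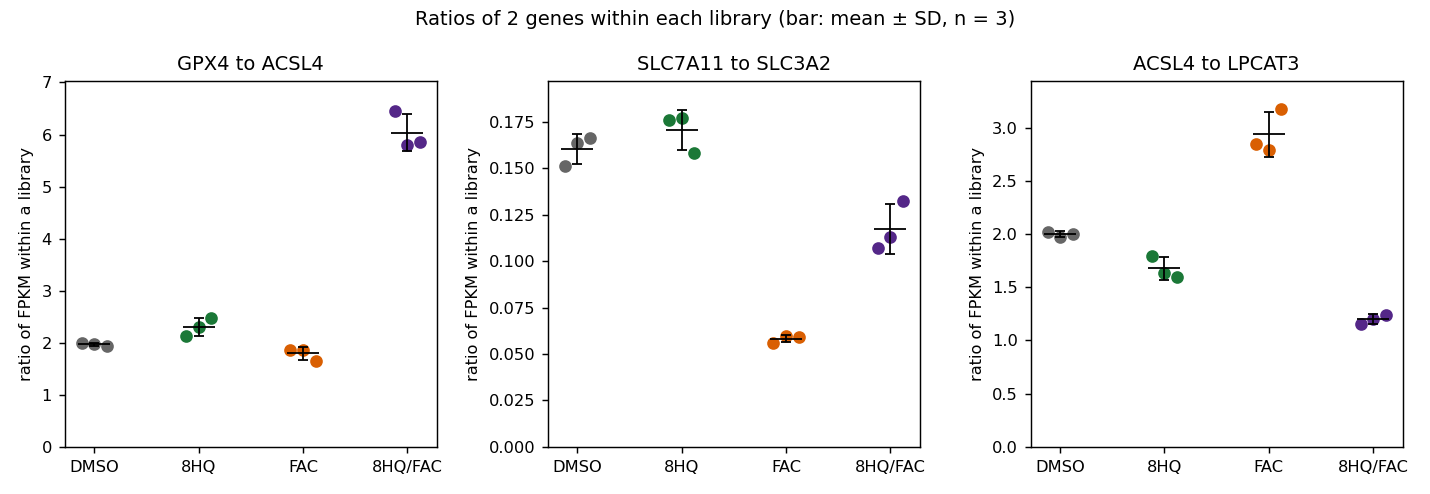
Ratio of the FPKM of pairs of members within each of the 12 libraries, with points for libraries and bars for the mean ± SD of each group of 3. GPX4 to ACSL4 lay between 5.79 and 6.45 in the 8HQ/FAC libraries against 1.94 to 1.99 in DMSO, and SLC7A11 to SLC3A2 was lowest with FAC.

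By level per length, the order of the 10 genes in DMSO was GPX4, ACSL4, SLC3A2, AIFM2, LPCAT3, ACSL3, SLC7A11, GCH1, DHODH and ALOX5, and the only neighbours whose libraries overlapped were ACSL4 and SLC3A2. With FAC, SLC7A11 dropped behind GCH1 and DHODH, and ACSL3 passed LPCAT3. With 8HQ and with 8HQ/FAC, SLC3A2 stood above ACSL4 without overlap. Measured on the log2 scale, the range between the highest and the lowest group mean was 1.45 for SLC7A11, 1.02 for ACSL4, 0.91 for GPX4, 0.54 for SLC3A2, 0.53 for AIFM2, 0.44 for ACSL3, 0.34 for DHODH, 0.30 for LPCAT3 and 0.23 for GCH1.

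Other genes of the same routes were counted in 8 lists of 69 genes, of which 58 were tested. With 8HQ alone 9 were called higher and 3 lower, with FAC alone 16 and 24, and with both agents against DMSO 13 and 29. Their median log2 changes were 0.02, -0.06 and -0.11 in these comparisons, beside 0.01, -0.01 and -0.23 for all tested genes. Of all tested genes 2.49% were called higher and 2.41% lower with 8HQ, 24.8% and 29.2% with FAC, and 27.5% and 56.7% with both agents. For both agents, 13 and 29 of 58 lay near them. The genes named were taken by low adjusted p. The counts refer to the deposited scaling.

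Of the glutathione list, which covers synthesis, recycling and the supply of its amino acids, 9 of 10 genes were tested. With 8HQ alone 4 rose and 1 fell, with FAC alone 2 and 5, and with both agents 2 and 4, the last beside 27.5% and 56.7% of all tested genes. GCLM, the modifier subunit of the enzyme that starts glutathione synthesis, rose from 6.52 ± 0.188 FPKM in DMSO to 14.0 ± 0.256 with 8HQ (log2 change 0.996, adjusted p = 4.03e-08), was at 8.41 ± 0.124 with FAC and at 13.5 ± 1.36 with both. TXNRD1, thioredoxin reductase, rose from 87.2 ± 1.08 to 151 ± 1.63 FPKM with 8HQ (0.78, adjusted p = 3.2e-09) but was at 85.1 ± 4.11 with both agents. SLC1A5, a glutamine importer, fell from 79.2 ± 2.03 to 54.9 ± 0.958 FPKM with FAC and to 54.3 ± 1.66 with both. All 8 genes of selenium supply, which makes the selenocysteine of GPX4, were tested. With 8HQ alone 1 rose, with FAC alone 4 rose and 1 fell, and with both agents 1 rose and 4 fell. Beside these, 2.49% of all tested genes rose with 8HQ, 24.8% rose and 29.2% fell with FAC, and 27.5% rose and 56.7% fell with both. SEPHS2, which makes the selenium donor, rose from 127 ± 1.44 to 149.5 ± 2.79 FPKM with FAC and fell to 74.7 ± 2.83 with both agents (-0.75, adjusted p = 2.28e-12), opposite to GPX4 itself in that comparison.

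The list around FSP1, with coenzyme Q and vitamin K, had all 7 genes tested. It had 1 higher for 8HQ, 3 higher and 1 lower for FAC, and 1 higher and 3 lower for both agents. Shares of all tested genes, higher and lower, were 2.49% and 2.41% with 8HQ, 24.8% and 29.2% with FAC, and 27.5% and 56.7% with both. NQO1, a quinone reductase under NRF2, rose from 273 ± 5.6 to 333 ± 1.16 FPKM with 8HQ (log2 change 0.28, adjusted p = 2.66e-06). With both agents it was at 307 ± 4.89 (0.17, but -0.33 under quantile normalization and -0.16 with equal sums). STARD7, which carries coenzyme Q between membranes, was at 98.5 ± 0.256 FPKM in DMSO and 59.6 ± 1.84 with both agents (-0.72). Of the 5 tetrahydrobiopterin genes beyond GCH1, 0 were called with 8HQ by limma (0 at an unadjusted p under 0.05). With FAC 1 rose and 2 fell, and with both agents 3 rose and 1 fell, beside the same shares. GCHFR, the feedback regulator of the GCH1 enzyme, was at 45.4 ± 2.73 FPKM in DMSO and 70.8 ± 0.572 with both agents (0.63, but 0.06 and not called after length correction). PTS, the step after GCH1, fell from 20.4 ± 0.978 to 13.7 ± 0.866 with FAC (-0.54, adjusted p = 3.1e-06).

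The list around DHODH, labelled as its mitochondrial side, held enzymes of pyrimidine synthesis and channels of the outer mitochondrial membrane. All 4 genes were tested. With 8HQ 1 rose, with FAC 2 rose, and with both agents 2 rose and 2 fell. Calls over all tested genes, higher and lower, were 2.49% and 2.41% with 8HQ, 24.8% and 29.2% with FAC, and 27.5% and 56.7% with both. UMPS, which completes the pyrimidine pathway after DHODH, fell from 11.8 ± 0.534 FPKM in DMSO to 3.69 ± 0.27 with both agents (log2 change -1.45, adjusted p = 4.9e-13). VDAC2, a channel of the outer membrane, rose from 71.9 ± 2.24 to 102 ± 3.86 with both agents. Among the enzymes of polyunsaturated fatty acids and phospholipids 11 of 14 were tested, with 1 lower for 8HQ, 2 higher and 7 lower for FAC, and 1 higher and 7 lower for both agents, where 56.7% of all tested genes were called lower. AGPS, an enzyme of ether lipid synthesis, went from 21.5 ± 1.03 to 12.99 ± 0.218 FPKM with both agents (-0.68, but -0.06 and not called after length correction), and AGPAT3, an acyltransferase, from 12.9 ± 0.411 to 8.83 ± 0.148 (-0.50, likewise -0.01). The lipoxygenase list held only 4 tested genes of 10, none of them a lipoxygenase. PEBP1, which binds lipoxygenases and turns them to phospholipids, rose from 397 ± 8.46 FPKM to 464 ± 8.78 with FAC and 667 ± 11.5 with both (0.75, adjusted p = 5.91e-13). POR, the electron donor of cytochromes P450, rose from 135 ± 3.01 to 150.0 ± 1.62 FPKM with 8HQ (0.15, adjusted p = 0.00326).

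Of 11 regulators 10 were tested, with 1 higher and 1 lower for 8HQ, 1 and 5 for FAC, and 2 and 7 for both agents. Beside these, 2.49% of all tested genes were called higher and 2.41% lower with 8HQ. The shares were 24.8% and 29.2% with FAC and 27.5% and 56.7% with both. NFE2L2, which encodes NRF2, fell from 109 ± 3.03 FPKM in DMSO to 48.2 ± 1.18 with FAC (log2 change -1.16, adjusted p = 7.57e-12) and 41.8 ± 2.62 with both agents (-1.37, adjusted p = 1e-13). KEAP1, which marks NRF2 for degradation, rose from 31.2 ± 0.339 to 37.9 ± 1.49 FPKM with 8HQ and fell to 15.3 ± 0.744 with both agents (-0.99, adjusted p = 1.53e-11). ATF3, a stress factor reported to repress SLC7A11, fell from 7.79 ± 0.339 to 2.32 ± 0.39 FPKM with FAC (-1.41, adjusted p = 3.75e-10) and rose to 53.7 ± 2.54 with both (2.64, adjusted p = 2.98e-14).

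**Figure D5:**
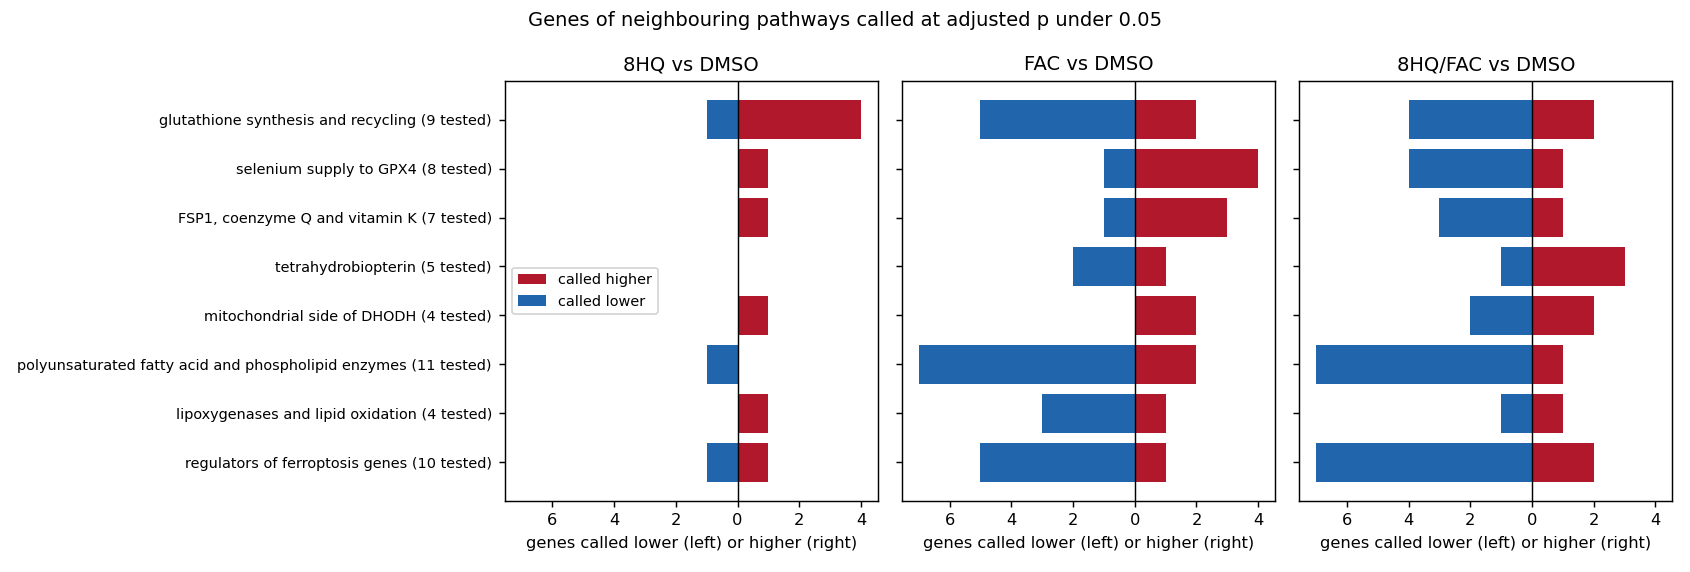
Number of tested genes called higher (to the right) and lower (to the left) in each of 8 lists of related genes, for 8HQ, FAC and 8HQ/FAC against DMSO. The glutathione list had 4 higher and 1 lower with 8HQ, where 2.49% and 2.41% of all tested genes were called. The list of polyunsaturated fatty acid and phospholipid enzymes had 1 higher and 7 lower with 8HQ/FAC, where 27.5% and 56.7% were called.

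Genes whose log2 values ran most closely with those of SLC7A11 over the 12 libraries were BPIFB2 (Pearson r = 0.99), GDF15 (0.98) and PRNP (0.98). GDF15, a secreted stress hormone, had means of 279.7, 315, 83.7 and 361 FPKM in DMSO, 8HQ, FAC and 8HQ/FAC. In all, 34 genes reached an r over 0.95 with SLC7A11. Closest to ACSL4 were IL1R1, SPDL1 and PEG3, each at 0.99, among 301 genes over 0.95. IL1R1, the interleukin-1 receptor, had means of 14.96, 12.1, 18.9 and 6.98 FPKM in the same order. These correlations rest on differences between 4 groups that share libraries and scaling, and are given as a description.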

How the data were processed

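RNA of 12 HepG2 libraries was measured, 3 in each of 4 groups taken from the labels. The authors deposited gene levels as FPKM, with 1 column per library; the sources used here do not give the counter, the annotation or the human build. The aligner was Bowtie 0.12.2, per the submitters' processing notes, which list the mouse builds mm8 and mm9, so no coordinates were taken from the table. Of the 20030 genes, 19741 matched RefSeq by GeneID, and 27 symbols that a spreadsheet had turned into dates were restored. FPKM gives no read totals. Low values lay within 0.05 of whole multiples of each gene's lowest value for 83.4% of 25575 values below 0.3 FPKM, too few to recover reads, and with transcript lengths of GENCODE 29 placed the libraries near 15300000 to 19700000 mapped reads or fragments (quartiles over genes 16100000 and 26000000 for the deepest). No counting interval was computed, since depth is only estimated.

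Genes that reached 1 FPKM in 3 or more libraries (10823, or 54.0%) were tested as log2(FPKM + 1), which understates changes of low genes. In limma 3.58.1 (R 4.3.3) the 12 libraries entered a single fit of group means with an intensity trend on the variance, and adjusted p-values (Benjamini-Hochberg, two-sided, over all tested genes) were computed in each of 6 comparisons, 5 between groups and the interaction of 8HQ and FAC. The procedure was tested on simulated data in which a small part of the genes changed, with 8HQ only. These data held no shift between libraries and no trend with length, so they do not cover the comparisons with 8HQ/FAC. Alternatives were 4 other scalings, a pseudocount of 0.1, a filter at 5 FPKM or none, no trend, only the groups compared, a replicate block, and leaving out each library. Lists are described by counts and medians. Some genes that the naming rule picked are not reported here. From each list of related genes, those named are up to 2 with the smallest adjusted p for 8HQ/FAC against DMSO and 1 for 8HQ against DMSO, and for the 2 members with the widest range of group means the 3 genes most correlated with each. The 10 genes, the lists and the tests were chosen with earlier results of these data known. Tables used pandas 2.3.3 and numpy 2.4.6, and figures matplotlib 3.10.9, in Python 3.11.15.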

Additional observations from a re-analysis of the deposited data

Results flagged for a closer look

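For all 9 tested genes the effect of FAC in the presence of 8HQ differed from its effect without 8HQ by the interaction test in limma. The difference on the log2 scale was 1.16 for SLC7A11, 0.65 for GPX4, 0.41 for SLC3A2, 0.19 for GCH1 and 0.16 for LPCAT3. It was -0.86 for ACSL4, -0.30 for DHODH, -0.26 for AIFM2 and -0.22 for ACSL3. Of all 10823 tested genes 23.4% were called higher and 53.3% lower in this test. For SLC7A11, GPX4, SLC3A2 and ACSL4 the sign and the call held under the 4 other scalings, and each of the other 5 changed sign under at least 1 of them. The call for GCH1 was lost without DMSO replicate 1 (adjusted p = 0.0528), FAC replicate 3 (0.0667) or 8HQ/FAC replicate 2 (0.0661). Groups of 3 libraries are too small for a search for single outlying libraries, and none was made.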

How the results depend on the processing

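Scaling moved the results with 8HQ/FAC most. Of all calls against DMSO, 32.7% were higher in the deposited scaling; quantile normalization gave 49.8%, median centring 63.3%, equal sums 15.7% and length correction 50.8%. The same shares were 32.4%, 49.7%, 62.6%, 15.6% and 51.7% against FAC, 31.7%, 49.6%, 62.3%, 15.4% and 50.7% against 8HQ, and 30.5%, 49.1%, 62.3%, 14.0% and 51.6% for the interaction. For FAC against DMSO they were 46.0%, 51.5%, 59.0%, 38.3% and 50.04%, and for 8HQ against DMSO 50.8%, 47.3%, 46.6%, 47.6% and 37.9%. Called members against DMSO rose from 4 to 7, 9, 8 and 7 under the 4 scalings in that order, and against 8HQ from 4 to 8, 9, 9 and 8. Called genes went from 9121 to 8853, 9134, 9449 and 8643 against DMSO and from 9139 to 8882, 9145, 9483 and 8655 against 8HQ. With 8HQ alone called members went from 2 to 4 under quantile normalization and with a filter at 5 FPKM, where 617 and 541 genes were called. Called genes there went from 531 to 343 without a filter.

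Signs that turned with a call in at least 1 of the settings compared were these. Under quantile normalization, GCH1 was at 0.30 against DMSO and 0.38 against 8HQ, SLC7A11 at 0.19 against 8HQ, and DHODH at 0.20 against FAC and 0.12 in the interaction. Under median centring, SLC7A11 was at 0.32 against 8HQ, AIFM2 at 0.12 against DMSO, 0.35 against FAC and 0.12 in the interaction, GCH1 at 0.31 against DMSO and 0.38 against 8HQ, DHODH at 0.17 against FAC and 0.069 in the interaction, ACSL3 at 0.33 against DMSO and 0.15 in the interaction, and LPCAT3 at 0.37 against 8HQ. With equal sums, SLC7A11 was at -0.22 and LPCAT3 at -0.28 against DMSO, GCH1 at -0.13 and LPCAT3 at -0.036 against FAC, DHODH at -0.23 and ACSL3 at -0.25 against 8HQ, and GCH1 at -0.061 and LPCAT3 at -0.12 in the interaction. After length correction, SLC7A11 was at 0.60, GCH1 at 0.15 and LPCAT3 at 0.13 against 8HQ, AIFM2 at 0.18, DHODH at 0.17 and ACSL3 at 0.074 against FAC, ACSL3 at 0.40 against DMSO, and DHODH at 0.078 and ACSL3 at 0.24 in the interaction. Of the related genes, against DMSO, TXNRD1 was at 0.38 and 0.31, CAD at 0.018 and 0.20 and ACSL5 at 0.18 and 0.0041 under median centring and after length correction. EEFSEC was at 0.19 and 0.18 under quantile normalization and median centring, LRP8 at 0.26, 0.26 and 0.46 and CYB5R1 at 0.18, 0.26 and 0.035 under these and after length correction, NQO1 at -0.33 and -0.16 and POR at -0.33 and -0.30 under quantile normalization and equal sums, and PTS at -0.30 and -0.40 under equal sums and after length correction. The cause was not tested.

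Leaving out 1 library gave 257 to 564 called genes for 8HQ against DMSO, with the counts of 257, 325, 301, 338 and 289 reached without DMSO replicate 1, DMSO replicate 2, 8HQ replicate 1, 8HQ replicate 2 and 8HQ replicate 3, and 1 to 3 called members. For FAC against DMSO it gave 5274 to 5921 genes and 8 members, and for 8HQ/FAC 8873 to 9110 genes and 4 to 6 members against DMSO, 8685 to 8977 and 6 to 8 against FAC, and 8907 to 9144 and 4 to 5 against 8HQ. The interaction gave 8097 to 8218 genes and 8 to 9 members. No trend and a pseudocount of 0.1 changed no member's call. The replicate numbers did not pair the libraries: of 18 pairs of the same number, 0 had a correlation of deviations over 0.1, with a range of -0.0756 to 0.0477, and 4 of 12 libraries were closest to their own number. With the replicate block 450 genes were called for 8HQ and 5756 for FAC against DMSO, and no member's call changed. ALOX5 stayed below the filter of 1 FPKM in every library and entered only the fit with no filter, resting there on few reads.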
